A study of Mus musculus with 29 samples.

Results

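Lyz1, Pla2g2a, Ang4, Itln1, Retnlb, Lypd8, Pglyrp1 and Slpi are 8 genes whose products act on bacteria at the gut surface, and they were chosen by name from the 54532 genes of a table of colon RNA-seq counts. Poly(A) RNA of the colon was sequenced from 29 mice in 9 groups, 1 library per mouse, to compare 6 models of colitis with untreated controls. All 8 genes had enough reads to be tested.

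TRUC mice (n = 4) are Balb/C mice that lack Tbx21 and Rag2 and were left untreated, and their controls (n = 3) are Balb/C Rag2-/- mice. Untreated Balb/C wild-type mice (n = 3) are the controls of the next 3 models, all labelled Balb/C. DSS mice (n = 3) drank 3% dextran sulfate sodium for 5 days and were culled at day 10, and DNBS mice (n = 3) received 3 mg of the hapten in 200 µl of 50% ethanol by the rectal route. IL10 antibody mice (n = 4) are labelled as given an IL10 blocking antibody, while the treatment notes give 750 µg of an antibody against the receptor and culling after 4 weeks. Untreated C57BL/6 Rag1-/- mice (n = 3) are the controls of the last pair of models, which carry the same genotype label. TCT mice (n = 3) received 500000 naive CD4+ T cells and were culled after 6 to 8 weeks, and anti-CD40 mice (n = 3) received 50 µg of an agonistic antibody and were culled after 7 days. The deletions of Rag1 and Rag2 remove mature T and B cells, so those controls hold only innate immune cells, and the transferred T cells are the only lymphocytes of that lineage in TCT. The T-cell recipients are called Rag2-/- in the treatment notes. In the study's methods the untreated wild types and the DSS-treated mice are instead C57BL/6, and the IL-10 model is Il10-/- mice. Mouse ages have no field in the labels. The identifiers of TRUC mice 4 and 5 in the count table are built unlike those of mice 2 and 3, one of them ending in 8W, and no source explains them.

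Paneth cells at the base of small intestinal crypts release lysozyme, phospholipase and defensins, and goblet cells release mucins together with proteins that bind or kill bacteria. The healthy mouse colon has goblet cells but few or no Paneth cells. Cells with Paneth features can appear in the inflamed colon, and such expression is called Paneth-like. Some of these proteins are not made by the epithelium alone: lysozyme, Pglyrp1 and Slpi are also made by myeloid cells.

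Total counts per mouse ranged from 10725564 to 14977094. Levels are given as CPM, a share of the TMM-scaled library total, and on this scale 3 counts, the most that a count of 0 allows, were 0.179 to 0.313 CPM. Changes are log2 fold changes with their standard error (SE), tested by edgeR's quasi-likelihood test and adjusted by Benjamini-Hochberg over 18616 genes, with a threshold of 0.05. Nothing in the labels says that mice of a group were independent litters or cages. The p values rest on the spread between these mice, which was estimated for each gene over all 9 groups together. No batch or date is given.

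Reads of a gene named as deleted in the label were present in TCT (Rag1), TRUC and the Rag2 controls (Rag2), and a further library stood apart from its group. Rag2 reads in libraries labelled Rag1-/- do not by themselves go against that label. Rag2 had 48 to 99 counts in the libraries labelled anti-CD40 and 6 to 20 in those labelled Rag1 control, against 15 to 25 in the Rag2 controls and 57 to 94 in TRUC. TCT had no Rag2 count in any mouse. Rag1 had 20 to 33 counts in TCT and at most 4 in any library labelled Rag1 control. A count does not show whether a transcript is intact, and the comparisons below follow the labels. Summed over 6 lymphocyte markers, the libraries labelled Rag1 control held 4.13 to 5.15 CPM and the wild-type controls 57.1 to 91.5 CPM. Between the libraries labelled Rag1 control and the Rag2 controls, 0.0698% of genes were called higher and 0.0537% lower, and none of the 8 genes was among them. Mouse 4 of the IL10 antibody group stood apart from mice 1, 2 and 3. Car1, a carbonic anhydrase of colonocytes, was at 3440 CPM in this mouse and at 122, 171 and 238 CPM in the other 3. Fabp2, a fatty acid binding protein of enterocytes, was at 232 CPM in it and at 7.84, 7.79 and 43.7 CPM in the others. The changes of the 8 genes in this model are therefore given with and without it.

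Members of the group rose in every model, and which of them rose differed between models. Of the 8 genes, 5 rose in TRUC, 4 in DSS, 4 in DNBS, 8 with IL10 antibody, 5 in TCT and 4 in anti-CD40, and Ang4 in anti-CD40 was the only fall that passed the test. Over all genes tested, the shares called higher and lower were 22.4% and 23.4% in TRUC, 17.7% and 16.3% in DSS, 3.95% and 2.21% in DNBS, 27.2% and 26.1% with IL10 antibody, 16.1% and 14% in TCT, and 10.9% and 10.7% in anti-CD40. The median log2 fold change of the 8 genes was 1.92 in TRUC, 2.16 in DSS, 2.73 in DNBS, 3.55 with IL10 antibody, 1.16 in TCT and 1.10 in anti-CD40, while the medians over all genes lay between -0.03 and 0.02. DSS, DNBS and IL10 antibody share the wild-type controls, and TCT and anti-CD40 share the controls labelled Rag1. Retnlb, Pglyrp1 and Slpi passed the test upwards in all 6 models, and Pla2g2a in all but TCT. Lyz1, Itln1 and Lypd8 passed in 2 models each, and Ang4 upwards in 1 and downwards in 1. The share of all genes called higher in all 6 models is not given here. Without mouse 4, 7 of the 8 genes rose with IL10 antibody, Ang4 being the one lost, and their median was 2.04. The share of all genes called in that fit is not given here. In bulk tissue, more cells of a type and more RNA per cell cannot be told apart.

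**Figure D1:**
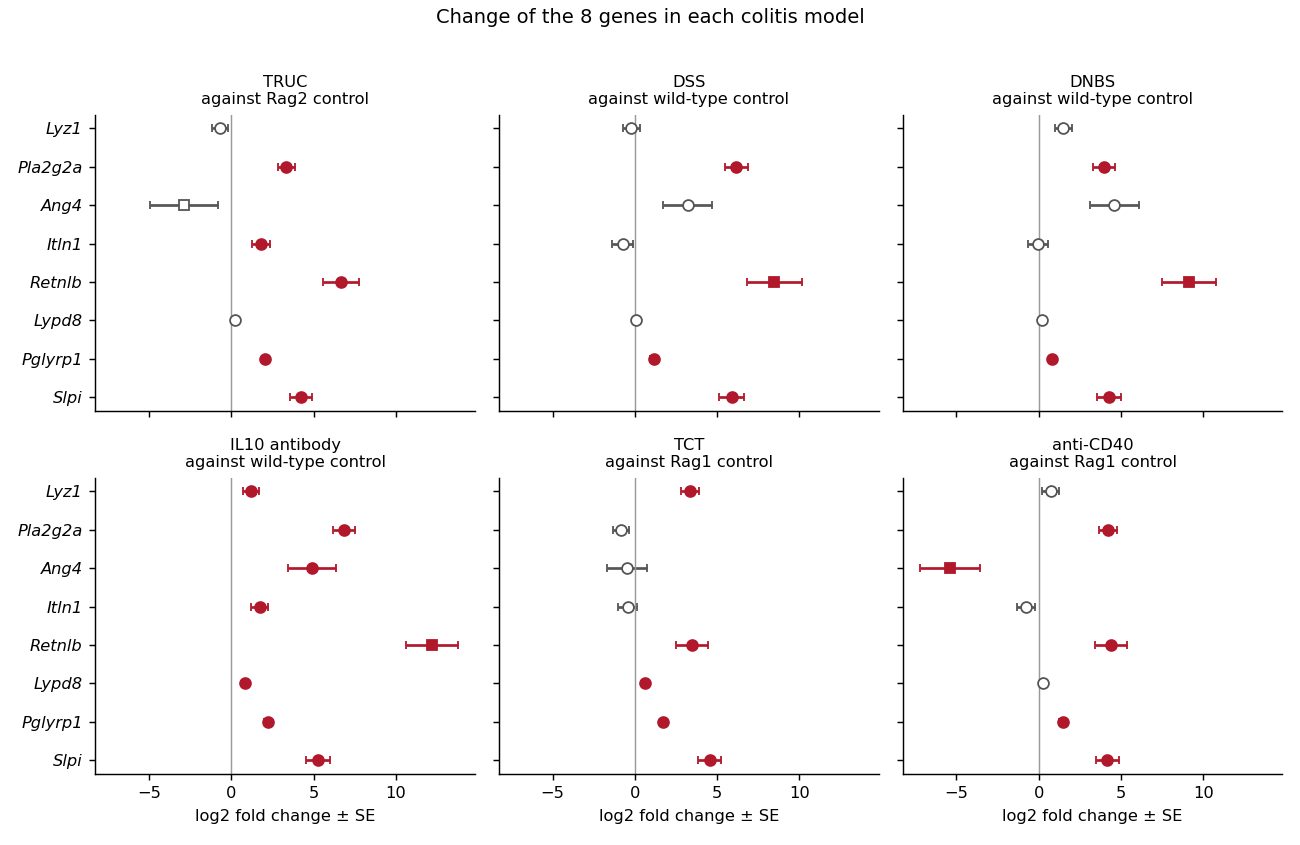
The log2 fold change of each gene (x axis, with SE as bars) is plotted for the 6 models against their labelled controls. Filled red symbols passed the test at an adjusted p of 0.05, open grey symbols did not, and squares are genes with at most 3 counts in every mouse of a group, whose fitted change depends on the prior count. Retnlb, Pglyrp1 and Slpi are filled and to the right of 0 in all 6 panels.

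Compared per kilobase of exon, the group spans a wide range of levels. Lypd8 was at 2760 CPM per kilobase in the wild-type controls and Pglyrp1 at 107, while Lyz1 was at 10.4, Slpi at 2.44, Itln1 at 0.888, Pla2g2a at 0.884, Ang4 at 0.86 and Retnlb at 0.0683. In TRUC the order was Lypd8 at 3160, Pla2g2a at 1590, Pglyrp1 at 391, Retnlb at 201, Slpi at 188, Lyz1 at 5.87, Itln1 at 2.21 and Ang4 at 0.177 CPM per kilobase. Lypd8 was the most abundant of the 8 in all 9 groups by this measure.

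**Figure D2:**
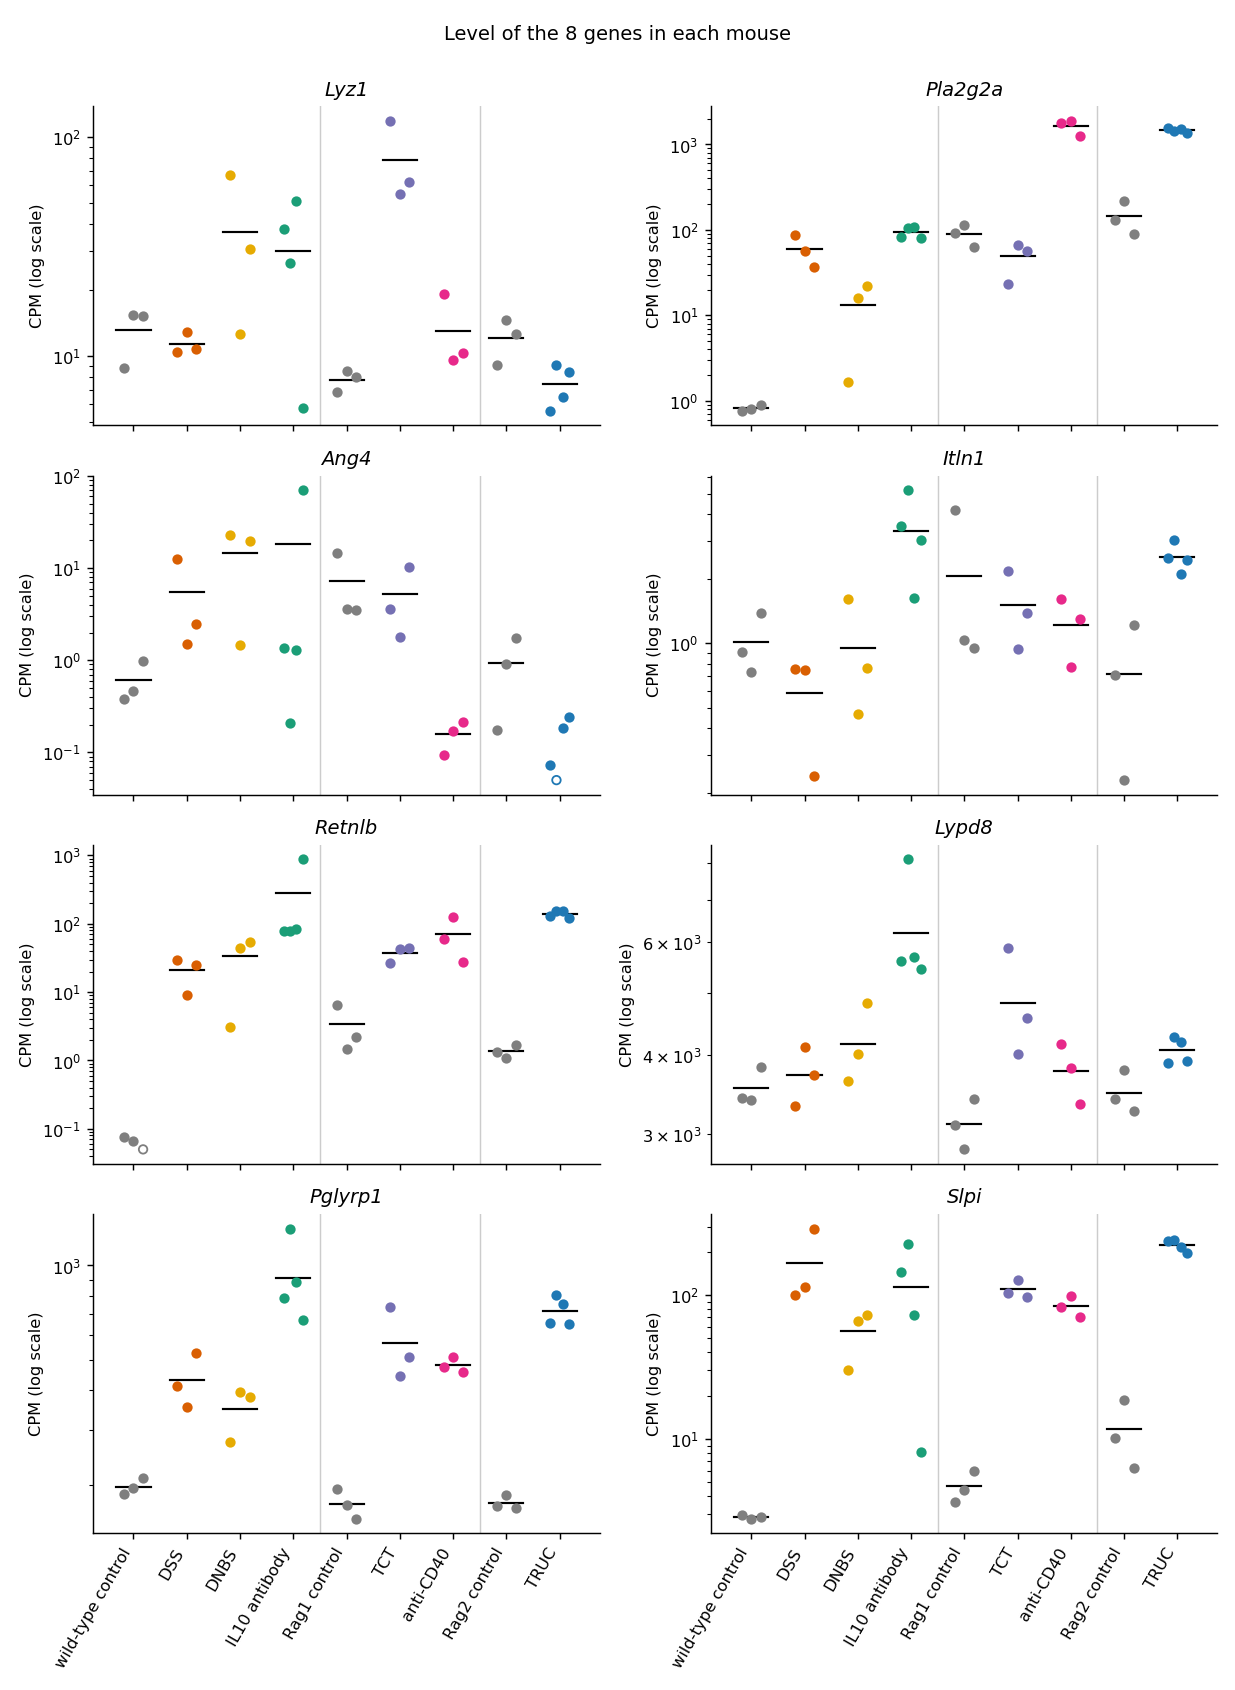
Each point is 1 mouse, plotted as CPM on a log scale for the 8 genes in the 9 groups, with grey lines between models that use different controls. Black bars are group means, left out where a mouse had no count, and open circles at 0.05 mark those mice. Pglyrp1 and Slpi lie above their own controls in every mouse of every model, and Ang4 and Lyz1 do not.

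Retnlb, on chromosome 16 (48816856 to 48818892, + strand, GRCm38), encodes RELM-beta, a goblet cell product that damages Gram-negative bacteria. It was nearly undetected in the wild-type controls, with 1, 1 and 0 counts. The DSS mice had 29.5, 9.02 and 25.3 CPM, the DNBS mice 3.1, 43.9 and 53.7 CPM and the IL10 antibody mice 78.4, 79.2, 84.8 and 874 CPM. Every mouse of these 3 models was above every wild-type control, and IL10 antibody mouse 4 held over 10 times the level of the other 3. The counts summed over mice were 430 times those of the wild-type controls in DSS (95% counting interval 119 to 3560), 609 times in DNBS (168 to 5030) and 5220 times with IL10 antibody (1440 to 43100). Without mouse 4 the last ratio was 1630 (451 to 13500). The adjusted p was 0.000523 in DSS, 0.00312 in DNBS, 2.63e-06 with IL10 antibody and 1.09e-06 without mouse 4 (edgeR). These intervals cover counting error only.

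The controls that lack lymphocytes held some Retnlb. The Rag2 controls had 1.33, 1.07 and 1.66 CPM and the libraries labelled Rag1 control 6.56, 1.47 and 2.24 CPM. Neither group overlapped the wild-type controls, and neither was called against them in the fit of all groups (adjusted p = 0.313 and 0.0705, edgeR). With each pair of groups fitted alone both were called (adjusted p = 0.000497 and 0.000712, edgeR). TRUC mice had 131, 154, 152 and 122 CPM, a log2 fold change of 6.68 (SE 1.09, adjusted p = 4.92e-05). TRUC was the most even of the models for this gene. TCT mice had 26.7, 42.2 and 44.8 CPM (log2 fold change 3.47, SE 0.956, adjusted p = 0.00757). The anti-CD40 libraries had 58.9, 127 and 28 CPM (log2 fold change 4.38, SE 0.975, adjusted p = 0.00284). Both values rest in part on mouse 2 of the controls labelled Rag1, without which they were 4.37 and 5.28. Without anti-CD40 mouse 7 the change in that model was 3.66 (adjusted p = 0.0213).

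Slpi, on chromosome 2 (164354070 to 164389095, - strand), encodes an antibacterial inhibitor of neutrophil elastase and other serine proteases. It was low and even in the wild-type controls, at 2.97, 2.79 and 2.87 CPM. The DSS mice had 101, 114 and 290 CPM, the DNBS mice 30, 66.6 and 73 CPM and the IL10 antibody mice 144, 228, 72.9 and 8.15 CPM. IL10 antibody mouse 4, the highest of its group for Retnlb, was the lowest for Slpi, though still above all wild-type controls. Slpi rose by a log2 fold change of 5.87 in DSS (SE 0.758, adjusted p = 7.9e-06), 4.29 in DNBS (SE 0.723, adjusted p = 0.00157) and 5.29 with IL10 antibody (SE 0.731, adjusted p = 4.93e-06). Without mouse 4 the last was 5.68 (adjusted p = 4.11e-08), without mouse 2 it was 4.7, and without DSS mouse 8 the DSS change was 5.22.

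The Rag2 controls had 10.1, 18.6 and 6.26 CPM of Slpi and TRUC 237, 240, 215 and 196 CPM, a log2 fold change of 4.25 (SE 0.664, adjusted p = 3.04e-05). The libraries labelled Rag1 control had 3.65, 4.42 and 6.02 CPM, TCT 103, 128 and 97.6 CPM and anti-CD40 83.2, 98 and 70.3 CPM. No mouse of these models overlapped its controls. The log2 fold changes were 4.55 in TCT (SE 0.71, adjusted p = 2.99e-05) and 4.16 in anti-CD40 (SE 0.701, adjusted p = 0.000276). Against the Rag2 controls they were 3.23 and 2.85, both called. Slpi was the 1 gene of the 8 for which a difference between the 6 models was not called (adjusted p = 0.183), where 60.5% of all genes were.

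Pglyrp1, on chromosome 7 (18871331 to 18890459, + strand), encodes a secreted protein that binds peptidoglycan and kills bacteria, and it is stored in neutrophil granules as well as made by epithelium. Its controls were almost level. The wild-type controls had 187, 195 and 210 CPM, the libraries labelled Rag1 control 194, 172 and 156 CPM and the Rag2 controls 171, 185 and 169 CPM. Every mouse with colitis was above every control mouse of the series. TRUC mice had 658, 807, 753 and 653 CPM, DSS mice 412, 355 and 527 CPM, and DNBS mice 274, 395 and 381 CPM. IL10 antibody mice had 790, 1310, 886 and 671 CPM, TCT mice 737, 446 and 510 CPM, and anti-CD40 mice 474, 512 and 456 CPM.

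The log2 fold change of Pglyrp1 was 2.21 with IL10 antibody (SE 0.202, adjusted p = 4.86e-08; 2.33 without mouse 4), 2.04 in TRUC (SE 0.2, adjusted p = 1.09e-07) and 1.7 in TCT (SE 0.206, adjusted p = 1.02e-06). It was 1.47 in anti-CD40 (SE 0.205, adjusted p = 4.57e-05), 1.13 in DSS (SE 0.203, adjusted p = 0.000208) and 0.83 in DNBS (SE 0.202, adjusted p = 0.0182). The 6 changes differed from each other (adjusted p = 2.7e-05, edgeR). The DNBS call was the least firm: without wild-type control 1 or 2, or without DNBS mouse 14 or 16, its adjusted p was 0.0883, 0.0717, 0.0886 and 0.0726, with log2 fold changes of 0.79, 0.82, 0.74 and 0.76.

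Neutrophil markers were called higher in every model, as Slpi and Pglyrp1 were, and macrophage and monocyte markers in every model but DNBS. Of 9 neutrophil markers tested of 11 listed, 7 rose in TRUC, 8 in DSS, 6 in DNBS, 8 with IL10 antibody, 6 in TCT and also 6 in anti-CD40, with no falls. Their summed level was 132 to 146 CPM in the wild-type controls, 152 to 294 CPM in the libraries labelled Rag1 control and 212 to 341 CPM in the Rag2 controls. It was 1690 to 2400 CPM in TRUC, 523 to 2660 CPM in DSS, 200 to 314 CPM in DNBS, 265 to 1210 CPM with IL10 antibody, 339 to 614 CPM in TCT and 652 to 1010 CPM in anti-CD40. S100a8 and S100a9, subunits of calprotectin, were at most 0.382 and 0.43 CPM in any control. Of 7 macrophage and monocyte markers, 7 rose in TRUC, 7 in DSS, 6 in TCT, 3 in anti-CD40 and 0 in DNBS, and 3 rose and 1 fell with IL10 antibody (5 and 0 without mouse 4). Their summed level was 395 to 595 CPM in the controls, 772 to 826 CPM in DNBS and 1090 to 2960 CPM in the other models. The part of neutrophils and macrophages in the rise of Slpi and Pglyrp1 was not tested.

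The starts of these genes are shown because Pglyrp1 and Slpi rose in all 6 models and Ang4 did not. Promoters, 250 bases before to 50 after a start site, were taken from RefSeq (GRCm38.p6), which held them for 6 of the 8 genes. They were searched on both strands for TTCNNNGAA (a STAT motif), CTTTGA (TCF/LEF), TTTATG (CDX) and, for NF-kB, GGGA followed by any base and TTTCC, and capitals mark matches.
Pglyrp1, chr7:18884440-18884739, + strand: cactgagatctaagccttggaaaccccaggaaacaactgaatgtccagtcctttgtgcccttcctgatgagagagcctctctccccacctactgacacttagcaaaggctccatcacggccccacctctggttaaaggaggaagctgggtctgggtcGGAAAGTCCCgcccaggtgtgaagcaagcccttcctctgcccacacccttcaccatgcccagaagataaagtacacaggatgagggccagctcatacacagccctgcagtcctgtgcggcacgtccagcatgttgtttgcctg
Slpi, chr2:164356458-164356757, - strand: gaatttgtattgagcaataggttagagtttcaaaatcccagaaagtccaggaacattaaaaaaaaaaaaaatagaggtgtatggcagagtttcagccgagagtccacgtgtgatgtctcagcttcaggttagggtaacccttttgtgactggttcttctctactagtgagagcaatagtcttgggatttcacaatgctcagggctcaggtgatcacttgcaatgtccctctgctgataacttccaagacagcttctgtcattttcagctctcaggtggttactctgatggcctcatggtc
Ang4, chr14:51773541-51773840, - strand: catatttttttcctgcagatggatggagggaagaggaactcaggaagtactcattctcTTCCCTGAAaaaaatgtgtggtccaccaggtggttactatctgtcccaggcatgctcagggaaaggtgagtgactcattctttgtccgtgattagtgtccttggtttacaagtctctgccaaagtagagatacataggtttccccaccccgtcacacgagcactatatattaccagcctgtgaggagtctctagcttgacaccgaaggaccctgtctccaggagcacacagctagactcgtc

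The Pglyrp1 promoter held the NF-kB letters, starting at base -93 from the start site, the Ang4 promoter the STAT letters at -192 and the Itln1 promoter the CDX letters at -29. Of 32851 promoters of the same length, 0.411% held the NF-kB letters, 8.30% the STAT letters, 11.9% the CDX letters and 16% the TCF/LEF letters. The windows of Slpi, Lyz1 and Lypd8 held none of the 4, and no promoter of the 6 genes held the TCF/LEF letters. No match overlapped another.

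Pla2g2a, on chromosome 4 (138831857 to 138835186, + strand), encodes a secreted phospholipase that breaks bacterial membrane lipids and is a Paneth cell product of the mouse small intestine. C57BL/6 mice are known to carry a disrupted copy of it and BALB/c mice an intact one. The levels did not follow the strain labels. The wild-type controls, labelled Balb/C, had 0.761, 0.799 and 0.902 CPM. The libraries labelled Rag1 control, and labelled C57BL/6, had 92, 113 and 63.4 CPM, and the Rag2 controls, labelled Balb/C, had 130, 217 and 89.2 CPM. Both Rag groups were far above the wild-type controls and overlapped each other. In the fit of all 9 groups, Pla2g2a was the only gene of the 8 called in either comparison. Its log2 fold change was 7.46 for the Rag2 controls (SE 0.693, adjusted p = 2.5e-08) and 6.75 for those labelled Rag1 (SE 0.682, adjusted p = 1.14e-07). Over all genes, 3.25% were called higher and 4.86% lower in the first comparison, and 4.77% and 6.18% in the second. Strain, genotype and colony cannot be told apart in these controls.

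Pla2g2a was far higher in TRUC and anti-CD40 than in the other 4 models. TRUC mice had 1570, 1450, 1510 and 1360 CPM and the anti-CD40 libraries 1800, 1890 and 1270 CPM. DSS mice had 86.1, 56 and 36.7 CPM, IL10 antibody mice 83.5, 104, 109 and 80.8 CPM, TCT mice 23, 67 and 57 CPM, and DNBS mice 1.67, 16.1 and 21.9 CPM. The DSS and IL10 antibody mice, high against their own controls, thus reached no more than the levels seen in untreated mice of the Rag groups, while every TRUC and anti-CD40 mouse was at 1270 CPM or more. Pla2g2a rose by a log2 fold change of 3.34 in TRUC (SE 0.504, adjusted p = 2.08e-05), 4.21 in anti-CD40 (SE 0.539, adjusted p = 2.16e-05), 6.17 in DSS (SE 0.674, adjusted p = 1.49e-06), 6.83 with IL10 antibody (SE 0.674, adjusted p = 1.54e-07, and 6.89 without mouse 4) and 3.98 in DNBS (SE 0.666, adjusted p = 0.00149). With DNBS and its controls fitted alone the adjusted p of that model was 0.0513.

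TCT was the exception, and its value turned with the control. Against the libraries labelled Rag1 control the log2 fold change of Pla2g2a was -0.87 (SE 0.482, adjusted p = 0.182), against the Rag2 controls -1.57 (SE 0.489, adjusted p = 0.0163) and against the wild-type controls 5.89 (SE 0.671, adjusted p = 2.38e-06). The changes of the 6 models differed from each other (adjusted p = 4.24e-07, edgeR), and this includes the spread of the control levels.

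Mptx2, a mucosal pentraxin of Paneth cells, was read beside Pla2g2a after its values were seen. It had 2.87 to 13.8 CPM in the libraries labelled Rag1 control, 4.53 to 10.6 CPM in the Rag2 controls, 15.1 to 45.1 CPM in anti-CD40 and 2.2 to 3.99 CPM in TRUC. In the wild-type controls, DSS, DNBS, IL10 antibody and TCT it was at most 0.239 CPM in any mouse. Mptx2 fell in TCT against the controls labelled Rag1 (log2 fold change -7.68, adjusted p = 8.35e-06). TCT libraries differed from their labelled controls in Rag1 and Rag2 reads too, so the TCT changes of the 8 genes are given against the other controls as well.

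**Figure D3:**
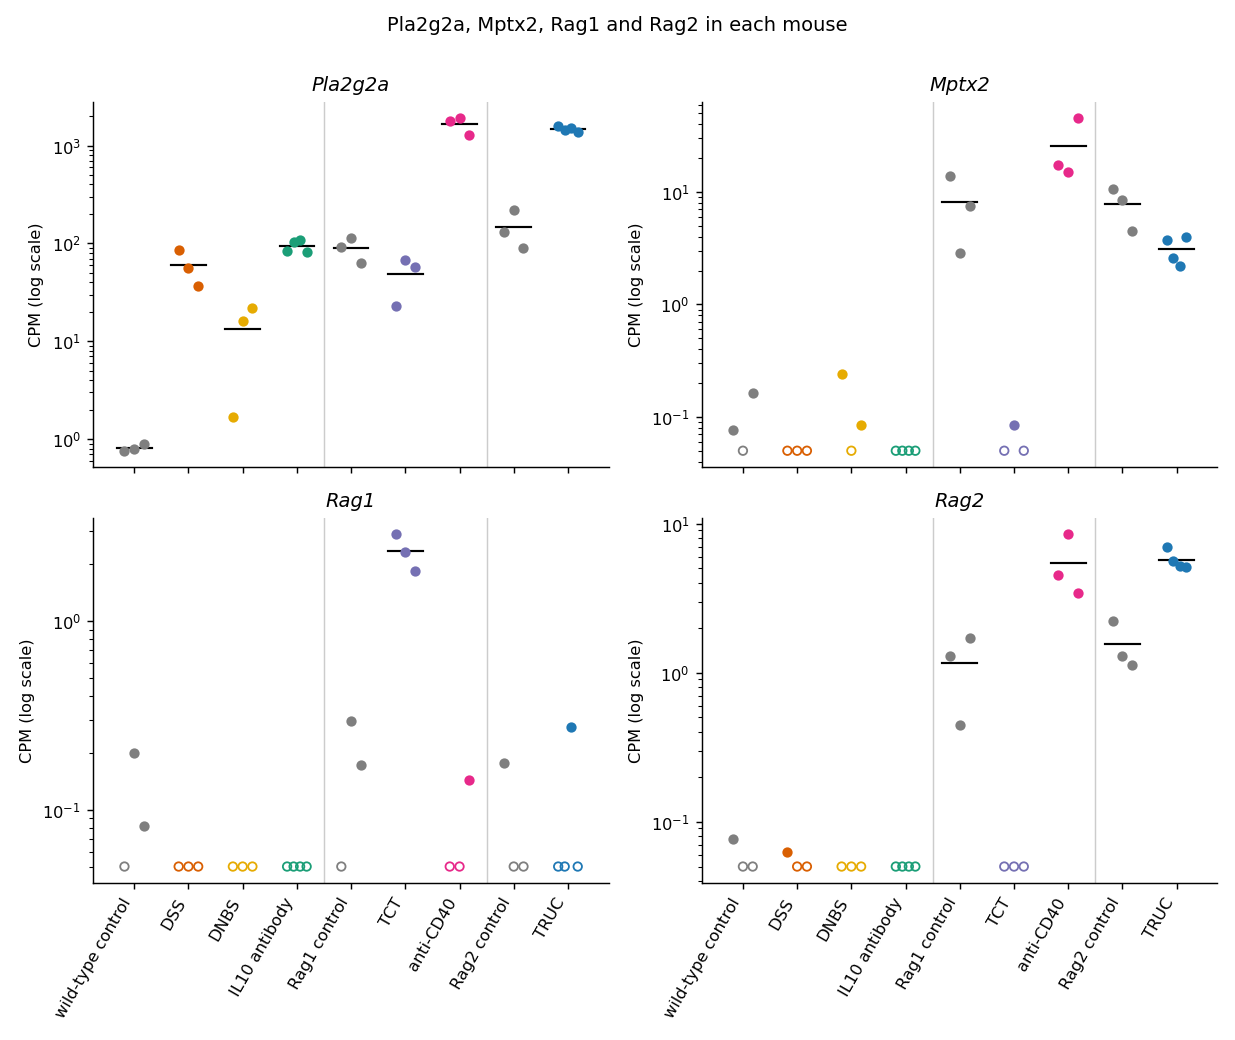
CPM of Pla2g2a, Mptx2, Rag1 and Rag2 is plotted on a log scale for each mouse of the 9 groups. Open circles at 0.05 are mice without a count, and bars are group means, left out where a mouse had no count. Pla2g2a is below 1 CPM only in the wild-type controls, and Mptx2 and Rag2 are both above 0.4 CPM in every mouse of TRUC, anti-CD40 and both Rag control groups and below it in all others.

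Against the wild-type controls, TCT was higher in Pla2g2a (log2 fold change 5.89), Lyz1 (2.58), Retnlb (9.31), Lypd8 (0.44), Pglyrp1 (1.51) and Slpi (5.25). Against the Rag2 controls it was higher in Lyz1 (2.7), Retnlb (4.8), Lypd8 (0.47), Pglyrp1 (1.69) and Slpi (3.23) and lower in Pla2g2a (-1.57). All of these were called by edgeR with an adjusted p of at most 0.0303. Over all genes, 16.9% were called higher and 13.8% lower against the wild-type controls, and 17.4% and 14.6% against the Rag2 controls. Lyz1, Retnlb, Lypd8, Pglyrp1 and Slpi were also those that rose against the libraries labelled Rag1 control. The same TCT mice are in each comparison. For anti-CD40 against the Rag2 controls, Pla2g2a (3.51), Retnlb (5.71), Pglyrp1 (1.46) and Slpi (2.85) were called, with an adjusted p of at most 0.00313, and Ang4 was not. Over all genes, 12.4% were called higher and 11.8% lower in that comparison.

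Lyz1, on chromosome 10 (117287797 to 117292868, - strand), encodes the lysozyme of Paneth cells, which cuts peptidoglycan, and Lyz2 beside it encodes that of macrophages and neutrophils. Lyz1 rose in TCT. TCT mice had 118, 54.8 and 62.3 CPM and the libraries labelled Rag1 control 6.81, 8.54 and 8 CPM, a log2 fold change of 3.33 (SE 0.557, adjusted p = 6.92e-05). IL10 antibody mice had 37.7, 26.6, 50.7 and 5.75 CPM and the wild-type controls 8.83, 15.4 and 15.1 CPM, a log2 fold change of 1.21 (SE 0.495, adjusted p = 0.0432). Mouse 4 was below all 3 controls, and the other 3 mice were above them. Without mouse 4 the change was 1.54 (adjusted p = 0.00394), and without any 1 of the other 3 mice or the 3 controls it lay between 0.84 and 1.33 and was not called (adjusted p from 0.0503 to 0.165).

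DNBS mice had 66.8, 12.5 and 30.8 CPM of Lyz1 (log2 fold change 1.49, SE 0.519, adjusted p = 0.0825) and DSS mice 10.4, 12.8 and 10.7 CPM (log2 fold change -0.21, SE 0.524, adjusted p = 0.783). Anti-CD40 mice had 19.2, 9.51 and 10.3 CPM (log2 fold change 0.73, SE 0.539, adjusted p = 0.349). TRUC mice had 5.6, 9.07, 6.5 and 8.46 CPM against 9.11, 14.5 and 12.5 CPM in the Rag2 controls (log2 fold change -0.7, SE 0.501, adjusted p = 0.26). With TRUC and its controls fitted alone the adjusted p was 0.0119 (edgeR). TRUC had the lowest mean of Lyz1 in the series, at 7.41 ± 1.63 CPM (SD, n = 4).

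Some markers of small intestinal enterocytes rose in the models where Lyz1 rose. Of 3 tested of 6 listed, 3 rose with IL10 antibody (2 without mouse 4), 1 in TCT and none in the other 4 models. Fabp6, an ileal bile acid binding protein, was at 22.2 to 34.9 CPM in TCT and at 4.34 to 6.24 CPM in the libraries labelled Rag1 control (log2 fold change 2.37, adjusted p = 0.0106). The sum of the 6 markers was 28.8 to 52.3 CPM in TCT, 18.5 to 286 CPM with IL10 antibody, 14.2 to 74.4 CPM in DNBS and 12.4 to 13.1 CPM in the wild-type controls. Within the IL10 antibody group, mouse 4 held the highest sum of the markers, 286 CPM, and the lowest Lyz1, 5.75 CPM. The part of the markers in the Lyz1 change was not tested.

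Lyz1 and Lyz2 share part of their sequence. Of the 50-base windows of Lyz1 exons, 16.06% were found in Lyz2 as well. Over the 444 coding bases, stop codon left out, the pair differed at 22, and the longest identical stretch was 118 bases. This stretch is shown with 25 bases on each side, bases 251 to 418 of the coding sequence (GENCODE M21), and capitals mark the bases that differ.
Lyz1: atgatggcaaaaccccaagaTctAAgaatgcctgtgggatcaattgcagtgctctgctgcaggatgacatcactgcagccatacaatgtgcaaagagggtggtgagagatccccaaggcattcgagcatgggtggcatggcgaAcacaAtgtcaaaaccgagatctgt
Lyz2: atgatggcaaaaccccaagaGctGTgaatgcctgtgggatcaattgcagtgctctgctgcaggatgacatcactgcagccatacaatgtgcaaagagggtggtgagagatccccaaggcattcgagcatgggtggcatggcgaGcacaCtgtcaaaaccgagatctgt

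Lyz2 was far more abundant. It had 1720, 895 and 990 CPM in TCT, 218 to 240 CPM in the libraries labelled Rag1 control and 223 to 271 CPM in the wild-type controls. Lyz2 rose in TCT by a log2 fold change of 2.39 (adjusted p = 3.2e-07), and also in TRUC (1.09), DSS (1.67), IL10 antibody (1.48, and 1.55 without mouse 4) and anti-CD40 (1.21). The ratio of Lyz1 to Lyz2 counts, given in percent, was 6.85%, 6.13% and 6.3% in the 3 TCT mice and 2.97%, 3.56% and 3.67% in the libraries labelled Rag1 control. The ratio was 0.898% to 2.07% in DSS and 1.26% to 1.84% in TRUC, where Lyz2 rose and Lyz1 was not called. The highest ratio was 17.2%, in DNBS mouse 11, and the other DNBS mice had 3.3% and 9.04%. In the wild-type controls the ratio was 3.97%, 5.96% and 5.56%. The Rag2 controls had 5.03%, 6.79% and 4.6%, and the TCT mice overlapped them. In the IL10 antibody group it was 5.17%, 4.66% and 5.58% in mice 1, 2 and 3 and 0.962% in mouse 4. How the reads of the shared stretch were assigned was not tested, and Lyz1 values are uncertain for this reason.

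**Figure D4:**
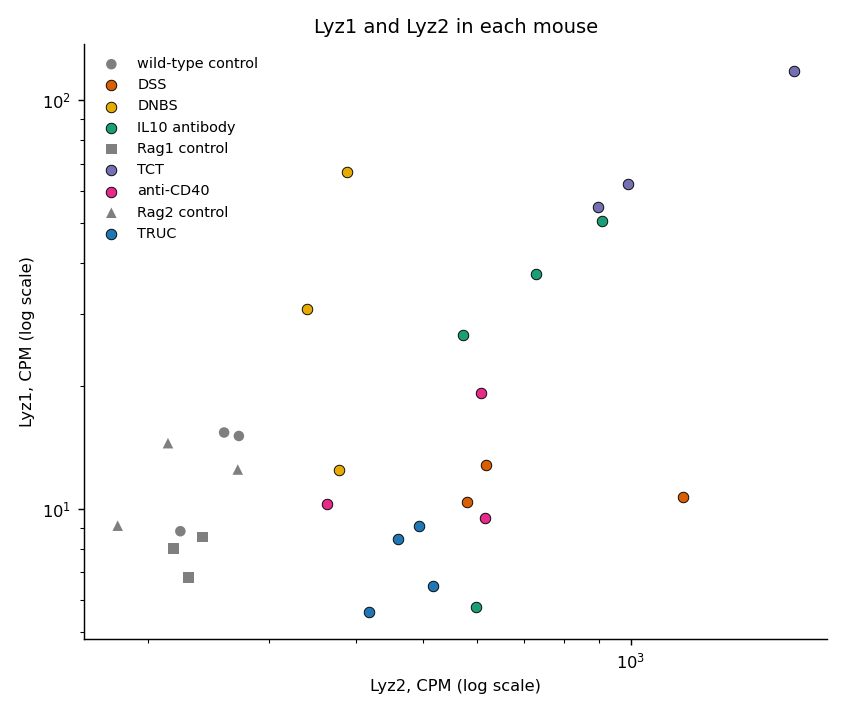
Lyz1 (y axis) is plotted against Lyz2 (x axis), both in CPM on log scales, with 1 point per mouse coloured by group. The TCT mice are at the upper right, the TRUC and DSS mice lie low on the Lyz1 axis at raised Lyz2, and 1 DNBS mouse at 66.8 CPM lies high at a Lyz2 level of 388 CPM.

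Ang4, on chromosome 14 (51763878 to 51773590, - strand), encodes a ribonuclease-family protein of Paneth and goblet cells that kills bacteria. It varied widely between mice of a group. The wild-type controls had 0.381, 0.466 and 0.983 CPM, the DSS mice 12.6, 1.5 and 2.48 CPM and the DNBS mice 22.8, 1.47 and 19.9 CPM. Every DSS and DNBS mouse was above every control, without passing the test (log2 fold change 3.2, SE 1.49, adjusted p = 0.0999 and 4.6, SE 1.5, adjusted p = 0.0652). IL10 antibody mice had 1.35, 0.208, 1.29 and 70.3 CPM, and the call of a rise (log2 fold change 4.9, SE 1.48, adjusted p = 0.00769) rested on mouse 4, without which the change was 0.68 (adjusted p = 0.645).

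In TRUC and anti-CD40, Ang4 was near the limit of detection. TRUC mice had 1, 0, 2 and 3 counts and the Rag2 controls 2, 12 and 23, a ratio of summed counts of 0.127 (95% counting interval 0.0438 to 0.304) that was not called between groups (adjusted p = 0.269). Anti-CD40 mice had 1, 2 and 3 counts and the libraries labelled Rag1 control 182, 49 and 41, or 14.7, 3.61 and 3.53 CPM. Summed over mice, the libraries labelled Rag1 control held 43.8 times the Ang4 of anti-CD40 (95% counting interval 19.9 to 120). The fall passed the test (adjusted p = 0.0376, edgeR) but not without anti-CD40 mouse 6, 7 or 8 (adjusted p = 0.105, 0.127 and 0.077), without control mouse 2 or 3 (adjusted p = 0.123 and 0.0519) or against the Rag2 controls (adjusted p = 0.425). TCT mice had 3.58, 1.79 and 10.2 CPM (log2 fold change -0.5, SE 1.22, adjusted p = 0.796), and the change was 0.54 without control mouse 2 and -1.44 without TCT mouse 5. Of the 50-base windows of Ang4, 4.7% were shared with Ang2 or Ang5, which had 2 and 0 counts in the whole series.

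Itln1, on chromosome 1 (171518122 to 171535294, - strand), encodes intelectin-1, a lectin of goblet and Paneth cells that binds sugars of microbial surfaces. It was low throughout, between 0.229 and 5.19 CPM in all mice. It rose in TRUC and with IL10 antibody. TRUC mice had 2.51, 3.02, 2.11 and 2.44 CPM against 0.708, 0.229 and 1.21 CPM in the Rag2 controls (log2 fold change 1.8, SE 0.565, adjusted p = 0.0121). IL10 antibody mice had 3.54, 5.19, 1.63 and 3.03 CPM against 0.914, 0.732 and 1.39 CPM in the wild-type controls (log2 fold change 1.72, SE 0.537, adjusted p = 0.00969), mouse 4 lay within the range of the other 3, and without it the change was 1.76. Each call was lost without 1 control: without Rag2 control 2 the adjusted p was 0.0744 (log2 fold change 1.37), without wild-type control 2 it was 0.0512 (log2 fold change 1.52), and without Rag2 control 4 the change was 2.43 (adjusted p = 0.00867).

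Itln1 was not called in the other 4 models. DSS mice had 0.755, 0.751 and 0.24 CPM, DNBS mice 1.61, 0.465 and 0.767 CPM, TCT mice 2.18, 0.94 and 1.39 CPM and anti-CD40 mice 1.6, 0.771 and 1.29 CPM. The libraries labelled Rag1 control had 4.21, 1.03 and 0.946 CPM. The log2 fold changes were -0.75 in DSS, -0.04 in DNBS, -0.45 in TCT and -0.76 in anti-CD40, and each group overlapped its controls. Mouse 2 of the controls labelled Rag1, at 4.21 CPM, set the sign of the last pair: without it they were 0.6 and 0.29. The DNBS value was 0.28 without DNBS mouse 14. The 95% intervals reached from -2.05 to 0.55 in DSS and from -1.29 to 1.2 in DNBS. The TRUC estimate of 1.8 lay outside both, but its own interval, 0.63 to 2.97, overlapped that of DNBS.

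Lypd8, on chromosome 11 (58379043 to 58390728, + strand), encodes a protein of colonocytes that is anchored to their surface, is shed into the lumen and binds bacterial flagella. Its level was high and narrow, from 2840 to 8090 CPM over all 29 mice. It rose with IL10 antibody and in TCT. IL10 antibody mice had 5610, 8090, 5680 and 5440 CPM and the wild-type controls 3420, 3390 and 3820 CPM (log2 fold change 0.81, SE 0.145, adjusted p = 8.38e-05). All 4 were above all controls, and without mouse 4 the change was 0.86. TCT mice had 5870, 4010 and 4560 CPM and the libraries labelled Rag1 control 3100, 2840 and 3410 CPM (log2 fold change 0.63, SE 0.152, adjusted p = 0.00288).

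Lypd8 was not called in the other models. DSS mice had 3320, 4110 and 3720 CPM (log2 fold change 0.07), DNBS mice 3640, 4010 and 4810 CPM (0.23), anti-CD40 mice 4150, 3810 and 3350 CPM (0.27) and TRUC mice 3880, 4260, 4190 and 3910 CPM against 3410, 3780 and 3260 CPM (0.22), none called. The upper bounds of the 95% intervals were 0.38 in DSS, 0.54 in DNBS, 0.59 in anti-CD40 and 0.51 in TRUC. Slc26a3, an anion exchanger of colonocytes, was at 140 to 427 CPM in TRUC and at 1060 to 1440 CPM in the Rag2 controls. Of 7 colonocyte markers, 1 rose and 5 fell in TRUC, 1 rose and 3 fell in TCT, and 2 rose and 1 fell with IL10 antibody (1 and 1 without mouse 4). Of 6 epithelial markers, 5 rose with IL10 antibody, with and without mouse 4, and none was called in TCT. Their median log2 fold change with IL10 antibody was 0.61, beside 0.81 for Lypd8, and the part of epithelial content in the Lypd8 rise was not tested.

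**Figure D5:**
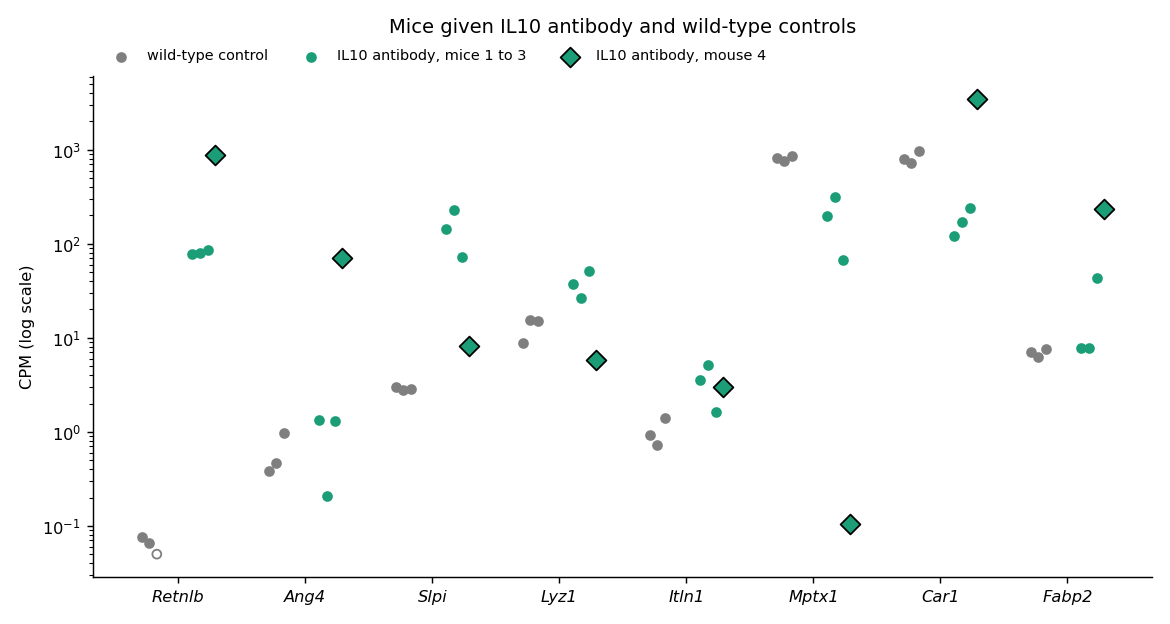
CPM on a log scale is plotted for the wild-type controls (grey), IL10 antibody mice 1 to 3 (green circles) and IL10 antibody mouse 4 (green diamonds), with an open circle at 0.05 for a mouse without a count. Mouse 4 lies far above the other 3 for Retnlb, Ang4, Car1 and Fabp2 and below them for Slpi, Lyz1 and Mptx1.

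Alpha-defensins, the defining peptides of Paneth cells, were nearly absent, and other genes listed with them were not. The 10 alpha-defensin genes looked up had at most 2 counts each, summed over all 29 mice. Sequence shared among the alpha-defensin genes, which can cost them reads, was not examined. Of 13 genes listed as Paneth cell granule genes, 3 could be tested, Mmp7, Mptx1 and Mptx2. Mmp7, the metalloprotease that activates alpha-defensins, rose in 5 of the 6 models and was at most 0.243 CPM in any control, with 3.66 to 7.74 CPM in TRUC, 1.07 to 6.28 CPM in DNBS, 11.9 to 53.4 CPM with IL10 antibody, 1.54 to 6.37 CPM in TCT and 10.8 to 23.4 CPM in anti-CD40. In DSS it was 0.0683 to 1.28 CPM (adjusted p = 0.0795). Mptx1, a pentraxin beside Mptx2, was at 759 to 852 CPM in the wild-type controls and at 4.05 to 25.1 CPM in both Rag control groups. It fell with IL10 antibody (log2 fold change -2.48, adjusted p = 0.0273, and -2.07 without mouse 4), with 0.104 CPM in mouse 4 and 67.1 to 316 CPM in the others, and rose in TCT against the controls labelled Rag1 (3.41, adjusted p = 0.02). Against the Rag2 controls that change was 3.85 (adjusted p = 0.0106) and against the wild-type controls -2.49 (adjusted p = 0.0675).

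Goblet cell markers went both ways, while Retnlb rose in all 6 models. Of 10 goblet cell markers, 2 rose and 5 fell in TRUC, 3 fell in DSS, 1 rose and 1 fell in DNBS, 4 rose and 2 fell with IL10 antibody (4 and 1 without mouse 4), 5 fell in TCT and 2 fell in anti-CD40. Clca1, a secreted protein of goblet cell mucus, fell in TRUC (log2 fold change -3.98, adjusted p = 9.84e-07), where Retnlb rose, and in TCT (-1.96), anti-CD40 (-1.63) and IL10 antibody (-1.18). Its call was lost without IL10 antibody mouse 4 (-1.08, adjusted p = 0.0563) and, in TCT, against the wild-type controls (-0.99, adjusted p = 0.105). Muc2, the main colonic mucin, rose with IL10 antibody (1.53, adjusted p = 4.5e-05, and 1.12 without mouse 4) and was not called in the other 5 models. Klk1, a kallikrein, fell in all 6 models. The summed level of the 10 markers was 6820 to 8050 CPM in the wild-type controls and 10900 to 14500 CPM in both Rag control groups.

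Relatives of the 8 genes went both ways, also within a family. Of 15 relatives tested of 24 listed, 6 rose and 4 fell in TRUC, 6 rose and 2 fell in DSS, 3 rose in DNBS, 8 rose and 2 fell with IL10 antibody (10 and 2 without mouse 4), 8 rose and 1 fell in TCT, and 5 rose and 2 fell in anti-CD40. Wfdc18 and Wfdc17, small secreted proteins with the whey acidic protein fold of Slpi, rose in all 6 models, Wfdc18 by log2 fold changes from 2.07 in DNBS to 5.03 in DSS. Wfdc2, an epithelial protein of the same fold, fell with IL10 antibody (-1.51, adjusted p = 0.0252, and -1.11 without mouse 4) and was not called elsewhere. Retnlg, a resistin-like gene of neutrophils, rose in all models but anti-CD40 (adjusted p = 0.146), while Retn fell in TRUC (-3.36, adjusted p = 0.00114) and TCT (-4.3, adjusted p = 0.000518). In TCT the Retn fall was also called against the Rag2 controls (-3.43, adjusted p = 0.00383). Against the wild-type controls it was not (-1.64, adjusted p = 0.173). Pla2g5, a neighbour of Pla2g2a in its cluster, rose in all models but DNBS (adjusted p = 0.0594), by log2 fold changes from 1.23 to 2.14, though not in TCT against the Rag2 controls (0.76, adjusted p = 0.137).

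Cytokines and receptors listed as regulators of the 8 genes were also read. Of 9 genes tested of 11 listed, 4 rose in TRUC, 6 rose and 1 fell in DSS, 1 rose and 1 fell in DNBS, 4 rose and 2 fell with IL10 antibody, 3 rose and 1 fell in TCT, and 2 rose and 1 fell in anti-CD40. Il22, a cytokine that induces antimicrobial genes in epithelium, had no count in the wild-type controls. It was called higher in TRUC (adjusted p = 0.0259), at 1.3 to 3.11 CPM, and in DSS (adjusted p = 0.000601), at 1.89, 0.683 and 50.6 CPM, and not in the other models. Il1b rose in all 6. Il13, which induces Retnlb in goblet cells, had at most 4 counts in any mouse and was not tested.

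The genes most like each of the 8 in their 6 changes were looked up among 15415 genes with a mean of at least 1 CPM, by the root mean square difference of the log2 fold changes. Lypd8 was nearest to Ppp2r1a (0.09), Pglyrp1 to Itgb6 (0.23) and Gch1 (0.27), and Slpi to Igtp (0.51) and Dhrs9 (0.53). Itln1 was nearest to Gm4714 (0.43) and Lyz1 to Tmem254c (0.55). Pla2g2a (Saa4, 1.12), Retnlb (Gbp10, 2.07) and Ang4 (Cdx2, 2.71) had no near neighbour by this measure. The likeness is over 6 changes, of which 5 share a control group with another.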

How the data were processed

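The authors deposited raw counts, whole numbers of reads per gene and mouse with no normalization. The submitters' processing notes name Trimmomatic, HISAT2, HTSeq and GRCm38, and versions, annotation and strand setting are not given in the sources used here. Of 54532 genes, 54409 were matched to symbols and GRCm38 positions (GENCODE M21), and 92 spike-in rows with a total count of 0 were left out. Genes averaging 3 or more counts over the mice entered edgeR (4.0.16, under R 4.3.3), with TMM scaling and 1 quasi-likelihood fit of the 9 groups, without covariates (20 residual degrees of freedom). Depth was 10725564 to 14977094 counts per mouse. Counting intervals are exact binomial intervals of the summed counts. The alternatives were RLE and upper quartile scaling, no filter, filterByExpr, DESeq2 1.42.0 or edgeR on 2 groups, a replicate block, other controls, and leaving out each mouse. Chosen after seeing the data were the gene lists without IL10 antibody mouse 4 and against other controls. The scripts were tested on simulated data.

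Named were the 8 genes, each list's counts with its more abundant members, and the nearest genes; the other list genes named were singled out after their values were seen. The genes and lists were chosen with earlier results of these data known.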

Additional observations from a re-analysis of the deposited data

Results flagged for a closer look

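Within the IL10 antibody group, 2 of the genes had a mouse far from the other 3. The gap of Retnlb in mouse 4 (874 CPM against 78.4 to 84.8 CPM) to the nearest mouse was 0.968 of the range of the group on the log2 scale, and that of Lypd8 in mouse 2 (8090 CPM against 5440 to 5680 CPM) was 0.889, both past Dixon's limit for 4 mice. Chance passes this limit in about 1 of 20 groups, and groups of 3 mice were not examined. Retnlb rose with IL10 antibody with and without mouse 4, and so did Lypd8.

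The changes of 7 of the 8 genes differed between the 6 models by the test of the difference itself (edgeR's quasi-likelihood F test, adjusted over all genes). The adjusted p was 9.35e-05 for Lyz1, 4.24e-07 for Pla2g2a, 0.00975 for Ang4, 0.00133 for Itln1, 0.000534 for Retnlb, 0.000737 for Lypd8 and 2.7e-05 for Pglyrp1. Over all genes the same test called 60.5%. The models differ in their control groups too, and the part of the controls in these differences was not tested.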

How the results depend on the processing

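Of the values of single genes under the alternatives, 842 kept direction and side of the threshold, 26 were no longer called, 28 became called and 21 changed sign. Only Pla2g2a in TCT was called after a change of sign, at 5.89 against the wild-type controls. Not called were TCT against the wild-type controls (Ang4 3.08, Itln1 0.58), TCT against the Rag2 controls (Ang4 2.41, Itln1 1.06) and anti-CD40 against the Rag2 controls (Itln1 0.76). Leaving out 1 mouse, with no call either way, Lypd8 in DSS ran from -0.01 to 0.13, Itln1 in DNBS from -0.71 to 0.28, Ang4 in TCT from -1.44 to 0.54, Itln1 in TCT from -0.82 to 0.6 and Itln1 in anti-CD40 from -1.09 to 0.29. Against wild type, the Rag2 controls ran from -0.34 to 0.04 for Lyz1, -0.09 to 1.16 for Ang4 and -0.09 to 0.03 for Lypd8, and those labelled Rag1 from -0.03 to 1.35 for Itln1. Between both Rag control groups Pglyrp1 ran from -0.1 to 0.06.

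The number of the 8 genes called changed by more than 1.5 times as follows. Without the filter, 2 were higher in the Rag2 controls and 2 in the libraries labelled Rag1 control, both against wild type. Of the 34062 genes in that fit, 511 and 688 were called higher. With edgeR on the 2 groups, 2 were lower in TRUC, 3 higher in the Rag2 controls, and 3 higher and 1 lower in those labelled Rag1. With DESeq2 on the 2 groups, 2 were lower in TRUC, 5 higher with IL10 antibody, 1 lower in TCT, 3 higher in the Rag2 controls, 3 higher and 1 lower in those labelled Rag1, and 1 lower between both Rag control groups. Against the Rag2 controls, 1 was lower in TCT and 0 in anti-CD40, where 14.6% and 11.8% of all genes were. In the IL10 antibody count DESeq2 gave no adjusted p for Ang4 and Retnlb, and only Lyz1 was tested and not called (adjusted p = 0.0536). The cause of the other changes was not tested. The shares of all genes called in the fits of 2 groups are not given here. Leaving out 1 mouse, the number lower in anti-CD40 ran from 0 to 1.

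The replicate block could be fitted for TRUC and IL10 antibody. Same-numbered mice did not deviate together (r from -0.053 to 0.034), so the numbers are not taken as pairs. With the replicate block 2 genes were lower in TRUC, Lyz1 and Ang4, and Lyz1 and Ang4 were not called with IL10 antibody; over all genes 7485 were called against 7521 in TRUC and 7645 against 8774 with IL10 antibody.

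Upper quartile scaling moved the median of all genes to -0.14 in TRUC and -0.18 with IL10 antibody, and gave 3854 genes higher and 6187 lower there against 5058 and 4858, 542 and 520 in DNBS against 736 and 412, and 621 and 1462 in the controls labelled Rag1 against wild type (888 and 1150). Lyz1 with IL10 antibody was then 1.05 (adjusted p = 0.0792). Between both Rag control groups the counts of 13 and 10 became 23 and 10 with RLE, 5 and 9 with upper quartile scaling and 6 and 4 without the filter. At the depth of these libraries, Ang4, Retnlb and Itln1 are near the counting limit in several groups, which limits their fold changes.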
